A study of Mus musculus with 9 samples.

Results

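Pericentral and Wnt-dependent hepatocyte genes are described here in the livers of mice given an agonist CD40 antibody. They were taken by name from the deposited table, as 9 of its 24341 genes: Glul, Oat, Rhbg, Slc1a2, Axin2, Lgr5, Tbx3, Rspo3, and Lect2. Rspo3 stands among them as a ligand that endothelial cells of the central vein release, not as a hepatocyte gene. Bulk liver RNA came from 9 wild-type C57BL/6 mice, 48 hours after treatment. Of these, 3 mice received anti-CD40, given in the series record as clone FGK45 (mice 2, 5, and 9), and 6 were control mice, for which the sample records name PBS (mice 3, 4, 7, 8, 11, and 12). The sample labels give neither dose, sex, nor age, and the methods state an age of 8 to 12 weeks for the mice of the study in general. The methods also state that mice in which anti-CD40 failed to lower B cells in the blood were left out, so the treated mice stand for animals that responded to the antibody.

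Hepatocytes along the liver lobule differ in the genes they use. Endothelial cells of the central vein release Wnt ligands and R-spondin 3, which stabilize β-catenin in the hepatocytes next to them, and these pericentral cells then make glutamine from ammonia and glutamate. Hepatocytes around the portal vein carry out more of the urea cycle and of gluconeogenesis. In bulk tissue, fewer cells of a type and less RNA per cell cannot be told apart.

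The values are FPKM, which scale the fragments of a gene by its length and by the size of the library, from libraries read at the 3′ end of each transcript. The levels of different genes are therefore not compared with each other. Tests used log2(FPKM + 0.1), a scale that makes changes of low genes look smaller, in the 13807 genes whose mean FPKM reached 0.1, and all 9 genes were among them. A gene was called when its Benjamini-Hochberg adjusted p from limma was under 0.05. The steps between low FPKM values gave a relative depth of 0.870 to 1.13 over the 9 mice, but the total depth is unknown. Other genes share ground with some of the 9 in the GENCODE annotation of the same build: Gm38392 overlaps Rhbg on its own strand, and Gm13872, Gm11670, Tbx3os1, and Gm48159 overlap Slc1a2, Axin2, Tbx3, and Rspo3 on the other strand, so reads may be shared if counting did not use strand. Over the genes tested, the correlation between mice was 0.953 to 0.980 within the control group, 0.970 to 0.978 within the anti-CD40 group, and 0.897 to 0.921 between them.

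All 9 genes had a lower mean after anti-CD40, and 4 of the 9 were called: Glul, Slc1a2, Oat, and Lect2. Among all genes tested, 21.7% were called lower and 23.5% higher. In 4 of the 9 genes (Oat, Slc1a2, Lgr5, and Lect2), every anti-CD40 mouse was below every control mouse, which held for 19.6% of all genes tested. The log2 ratio of a gene is its mean after anti-CD40 minus its mean in control mice on that scale, drawn as log2 fold change in the plots, and SE is its standard error. The median log2 ratio was -0.85 over the 9 genes and 0.0056 over all genes tested.

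**Figure D1:**
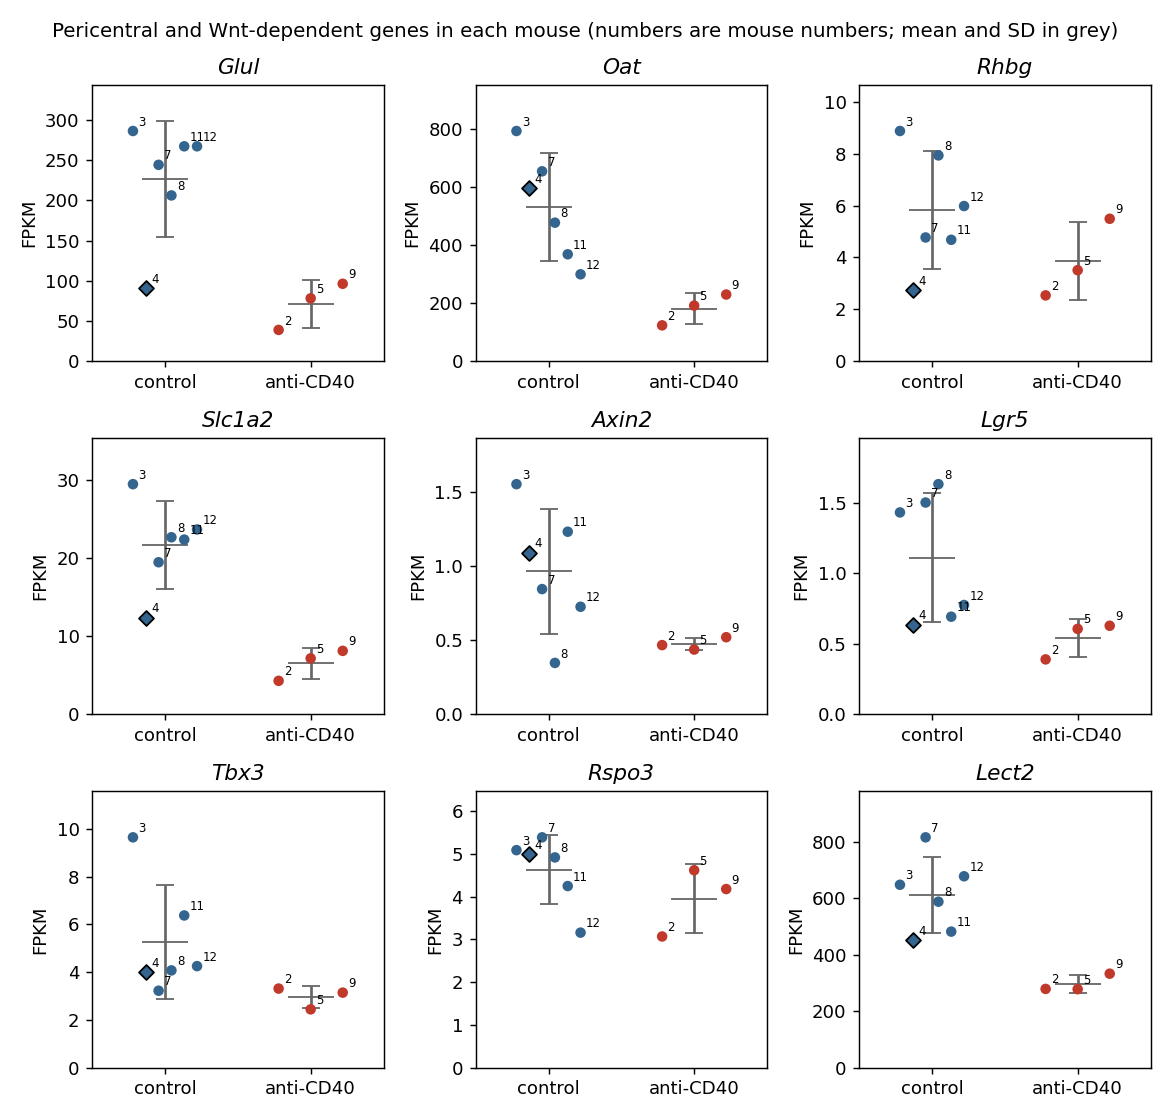
FPKM of each gene (y axis, from 0) in the 6 control mice (blue) and the 3 anti-CD40 mice (red), with mouse numbers beside the points and the mean and SD in grey. Control mouse 4, drawn as a diamond, lies at 90.6 for Glul, below anti-CD40 mouse 9 at 96.3.

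Glul encodes glutamine synthetase, which joins ammonia to glutamate in the hepatocytes closest to the central vein. The gene occupies mm10 chromosome 1 from 153899926 to 153909723, a position that the table gives to 2 genes. Glul had an FPKM of 39.0, 78.2, and 96.3 in mice 2, 5, and 9 of the anti-CD40 group, against 90.6 to 286 among the controls, with a median of 256. Only control mouse 4 reached into the anti-CD40 range, and the other 5 control mice were above every anti-CD40 mouse. The mean was 71.2 ± 29.3 (SD, n = 3) against 227 ± 72.2 (SD, n = 6), a log2 ratio of -1.68 (SE 0.38, adjusted p = 0.00491 from limma, exact permutation p = 0.0476).

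Slc1a2 encodes the glutamate transporter GLT-1, which brings the substrate of glutamine synthetase into the cell. On chromosome 2 it spans 102658683 to 102790784. Slc1a2 had an FPKM of 4.31, 7.19, and 8.15 in mice 2, 5, and 9 of the anti-CD40 group, against 12.4 to 29.5 among the controls, with a median of 22.6. The groups did not overlap, and mouse 4 was again the lowest control. At -1.72, the log2 ratio was the largest in size of the 9 genes (SE 0.27, adjusted p = 0.000481 from limma, exact permutation p = 0.0238, the smallest that 3 against 6 mice allow), but its 95% interval, -2.31 to -1.12, covers the values of Glul and Oat.

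Oat encodes ornithine aminotransferase, a mitochondrial enzyme that converts ornithine toward glutamate and is enriched in the same pericentral layer. Its place is chromosome 7 from 132557475 to 132576398. Oat had an FPKM of 124, 192, and 230.3 in mice 2, 5, and 9 of the anti-CD40 group, against 300.0 to 794 among the controls, with a median of 538. The groups did not overlap. Here mouse 4, at 597, was the third highest control, and mouse 12 was the lowest. Its mean was 182 ± 53.8 (SD, n = 3) with the antibody and 532 ± 185 (SD, n = 6) without, a log2 ratio of -1.51 (SE 0.31, adjusted p = 0.00255 from limma, exact permutation p = 0.0238).

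Rhbg encodes an ammonia transporter of the Rh family and was not called. On chromosome 3 it spans 88242874 to 88254684. It reached an FPKM of 2.54, 3.51, and 5.49 in mice 2, 5, and 9 of the anti-CD40 group, against 2.75 to 8.87 among the controls. The groups overlapped, with anti-CD40 mouse 9 above 3 of the 6 control mice and control mouse 4 the lowest control. The log2 ratio was -0.56, with a 95% interval from -1.34 to 0.22 (adjusted p = 0.224 from limma, exact permutation p = 0.238). The reads behind these values were 96 to 182 in the anti-CD40 group, against 97 to 289 among the controls. Reads were given as the smallest whole numbers that fit the steps between low values, so the true number could be a multiple.

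In anti-CD40 mouse 2, Glul, Slc1a2, Oat, and Rhbg each had the lowest FPKM of the 9 mice, as did Lgr5 and Rspo3. Mouse 9 had the highest value of the 3 anti-CD40 mice for Glul, Slc1a2, Oat, and Rhbg. It also had the highest for Axin2, Lgr5, and Lect2, so neither trait is particular to the first 4 genes. Anti-CD40 mouse 5 stood apart in transcripts of the pancreas: 10 acinar genes summed to an FPKM of 991 there. The sum was 27.9 and 33.2 in mice 2 and 9 and 70.6 to 190.4 among the controls. Outside mouse 5 it was nearly all Cela1, at 27.0 and 29.3 in mice 2 and 9 and 69.3 to 188 among the controls. In mouse 5 Cela1 was at 315. Amy2a5 was listed at the floor of 0.01 in all mice. Of the 9 acinar genes tested, 1 was called (11.1%), Cpb1, which was higher after anti-CD40. Over all genes tested, 23.5% were called higher. Without mouse 5, the log2 ratios were -1.79 for Glul, -1.81 for Slc1a2, and -1.58 for Oat, each still called.

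Axin2, Lgr5, and Tbx3 are transcribed in response to β-catenin in many tissues. None was called, though in each the mean was 49.3%, 48.8%, and 56.4% of the control mean, in this order. Axin2 encodes a scaffold of the complex that degrades β-catenin, and lies on chromosome 11 from 108920349 to 108950781. It reached an FPKM of 0.467, 0.437, and 0.520 in mice 2, 5, and 9 of the anti-CD40 group, against 0.347 to 1.55 among the controls. The anti-CD40 mice lay close together, and control mouse 8 alone was below them. The log2 ratio was -0.78, with a 95% interval from -1.56 to 0.0051 (adjusted p = 0.0974 from limma, exact permutation p = 0.0952). Leaving out control mouse 8 gave an adjusted p of 0.00757 from limma, and the alternatives together 0.00757 to 0.314. The values rest on 37 to 42 reads in the anti-CD40 group, against 24 to 120 among the controls, of which mouse 8 had the 24.

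Lgr5 encodes a receptor for R-spondins and marks pericentral hepatocytes. It lies on chromosome 10 from 115450314 to 115587780, a position that the table gives to 2 genes. It reached an FPKM of 0.390, 0.606, and 0.628 in mice 2, 5, and 9 of the anti-CD40 group, against 0.634 to 1.63 among the controls. The groups did not overlap, but by a small margin: anti-CD40 mouse 9 had 55 reads and control mice 4 and 11 had 59 each. The log2 ratio was -0.85 (95% interval -1.56 to -0.13, unadjusted p = 0.0246 and adjusted p = 0.0535 from limma, exact permutation p = 0.0238). It passed the threshold without control mouse 4 (adjusted p = 0.0238), 11 (0.0401), or 12 (0.0478), and the adjusted p was 0.00944 to 0.202 over all alternatives.

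Tbx3 encodes a T-box transcription factor of pericentral hepatocytes, on chromosome 5 from 119670862 to 119684724. Tbx3 had an FPKM of 3.31, 2.44, and 3.14 in mice 2, 5, and 9 of the anti-CD40 group, against 3.22 to 9.64 among the controls, with a median of 4.16. Control mice 3 and 11 had the highest values, and control mouse 7 lay within the anti-CD40 range. The log2 ratio was -0.72 (95% interval -1.39 to -0.042, unadjusted p = 0.0394 and adjusted p = 0.0784 from limma, exact permutation p = 0.0476). It was -0.83 (adjusted p = 0.0446 from limma) without control mouse 7, and the adjusted p was 0.0277 to 0.358 over all alternatives.

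Rspo3 encodes R-spondin 3, the central vein ligand that amplifies Wnt signals through Lgr receptors. It lies on chromosome 10 from 29453107 to 29535867. It reached an FPKM of 3.07, 4.62, and 4.18 in mice 2, 5, and 9 of the anti-CD40 group, against 3.16 to 5.39 among the controls. The groups overlapped widely, with 149 to 211 reads in the anti-CD40 group, against 125 to 245 among the controls. The log2 ratio was -0.22, and its 95% interval, -0.65 to 0.20, did not reach the size seen for Glul, Slc1a2, Oat, or Lect2 (adjusted p = 0.368 from limma, exact permutation p = 0.238). Its direction was not fixed: it was 0.13 once the mice were rescaled without the acute-phase genes Saa1, Saa2, and Saa3.

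Lect2 encodes a protein that hepatocytes secrete into the blood and that was first known as a chemotactic factor for leukocytes. It is a β-catenin target in the liver. It lies on chromosome 13 from 56542460 to 56548538. Lect2 had an FPKM of 279, 278, and 333 in mice 2, 5, and 9 of the anti-CD40 group, against 452 to 816 among the controls, with a median of 618. The groups did not overlap, and the lowest control was mouse 4. Its mean was 297 ± 31.5 (SD, n = 3) with the antibody and 611 ± 134 (SD, n = 6) without, a log2 ratio of -1.02 (SE 0.18, adjusted p = 0.00122 from limma, exact permutation p = 0.0238).

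**Figure D2:**
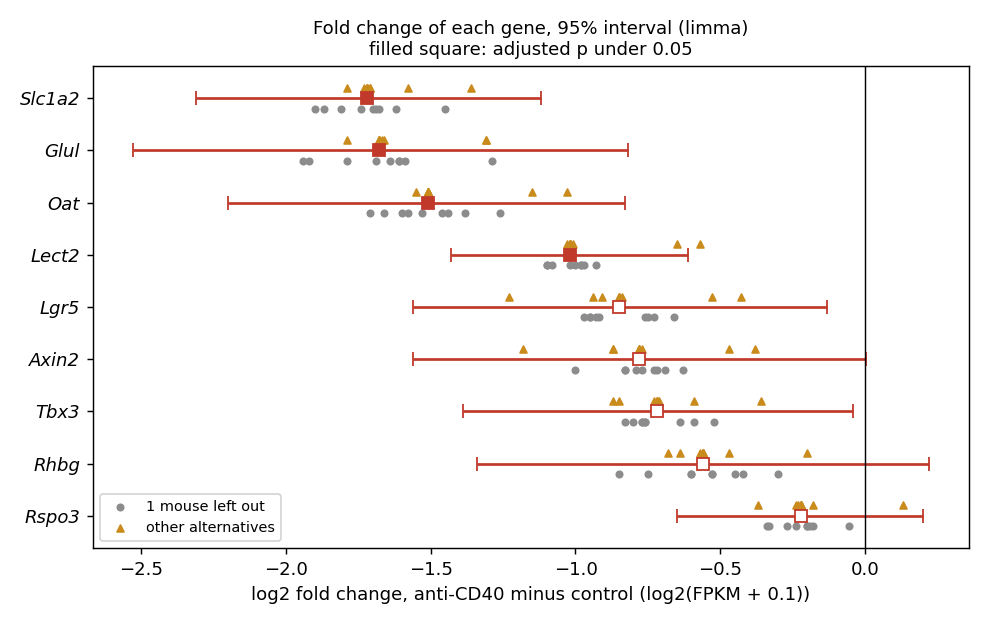
Log2 fold change (x axis, anti-CD40 minus control) of the 9 genes with the 95% interval from limma, filled where the gene was called. Grey circles leave out 1 mouse and triangles are the other alternatives. Slc1a2, Glul, Oat, and Lect2 keep to the left of 0 with their whole intervals, while Rspo3 lies at -0.22 with an interval that spans 0.

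RefSeq promoters were at hand for 5 of the 9 genes: Glul, Slc1a2, Oat, Axin2, and Lect2. In the 250 bases before each start, the TCF/LEF core CTTTGA, the letters that β-catenin's partner factors prefer, was looked for on both strands together with its longer form CTTTGAT. Of 32851 promoters, 13.8% held the core and 3.21% the longer form, of which every match is also a match of the core. Slc1a2 and Lect2 held both forms, and Glul, Oat, and Axin2 held neither. The STAT motif TTCNNNGAA was in 7.02% of all promoters and in none of the 5. These matches describe letters only. The promoters of Slc1a2 and Lect2 are shown because they are the ones with a match, in capitals, among the genes called lower. The Slc1a2 window lies before an internal start of the gene, inside the position given in the table. For Lect2, the match begins 32 bases before the start.
Slc1a2, GRCm38.p6 chr2:102706188-102706437, plus strand: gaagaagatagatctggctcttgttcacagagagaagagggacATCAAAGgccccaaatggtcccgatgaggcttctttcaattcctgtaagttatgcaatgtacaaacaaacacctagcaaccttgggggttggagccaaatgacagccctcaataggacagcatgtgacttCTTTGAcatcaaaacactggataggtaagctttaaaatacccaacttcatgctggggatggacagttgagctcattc
Lect2, GRCm38.p6 chr13:56548539-56548788, minus strand: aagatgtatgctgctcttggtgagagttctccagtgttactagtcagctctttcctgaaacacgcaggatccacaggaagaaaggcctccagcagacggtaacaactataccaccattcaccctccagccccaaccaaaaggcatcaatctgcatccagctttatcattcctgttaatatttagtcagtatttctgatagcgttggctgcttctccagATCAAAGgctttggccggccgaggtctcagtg

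Control mouse 4 was the lowest control for 5 of the 9 genes: Glul, Rhbg, Slc1a2, Lgr5, and Lect2. Against the mean of the other control mice, it had 35.6% of the Glul, 42.7% of the Rhbg, 52.6% of the Slc1a2, 52.7% of the Lgr5, and 70.4% of the Lect2. It had 115% of the Oat, 116% of the Axin2, and 109% of the Rspo3. Among all genes tested whose lowest control was a single mouse, mouse 4 was that mouse in 26.3%. The same mouse had the lowest summed FPKM of hepatocyte markers among the control mice (30785, with the highest control at 55275) and the highest summed FPKM of leukocyte markers (212, with the lowest control at 42.6). In mouse 4 the hepatocyte sum was mostly Apoa2 (16832), and the leukocyte sum was mostly S100a8 (99.2) and S100a9 (50.3). The part of these marker differences in the values of the 9 genes was not tested. Without mouse 4, the log2 ratio of Glul was -1.92 (adjusted p = 0.000233 from limma) and that of Rhbg -0.75, and 5 of the 9 genes were called, Lgr5 being the one added.

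**Figure D3:**
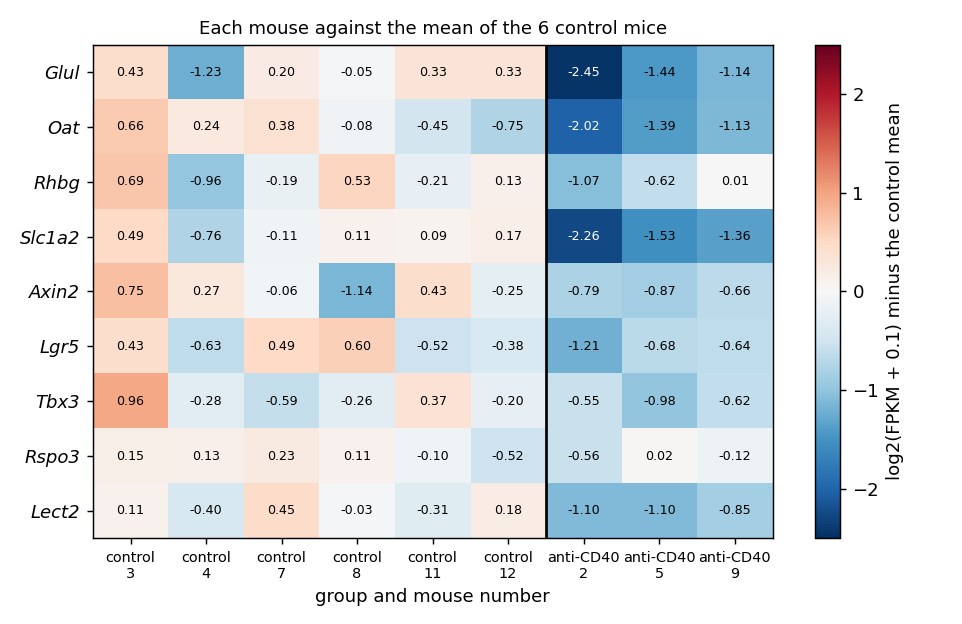
Log2(FPKM + 0.1) of each gene (rows) in each mouse (columns) minus the mean of the 6 control mice, blue where lower and red where higher. Control mouse 4 is at -1.23 for Glul and 0.24 for Oat, and anti-CD40 mouse 2 is at -2.45 for Glul.

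To place these genes in their pathway, the other Wnt genes were taken from 4 lists compiled from general knowledge. Of 82 listed genes, 54 were tested, 15 were called lower (27.8%) and 9 higher (16.7%), against 21.7% and 23.5% of all genes, and their median log2 ratio was -0.27. The balance depended on the scaling: 26 were lower and 8 higher with quantile normalization, and 10 lower and 16 higher without the Saa genes, which moved the median of all genes by 0.34. Among 12 ligands and secretion genes tested, 4 were lower (33.3%) and 1 higher (8.33%). Wnt2, a ligand of the central vein and sinusoidal endothelium, had an FPKM of 2.55, 2.69, and 3.83 in mice 2, 5, and 9 of the anti-CD40 group, against 3.04 to 9.33 among the controls, mouse 4 being the lowest. Its log2 ratio was -1.16 (adjusted p = 0.0134 from limma), and it was no longer called with anti-CD40 mouse 2 or 5 left out. Wnt9b, the other ligand known from the central vein, had 10 to 37 reads in the anti-CD40 group, against 14 to 36 among the controls, the 14 in mouse 4, and was not called (log2 ratio -0.38, adjusted p = 0.372 from limma). Also lower were Wnt7b (-1.19, at 0 to 3 reads after anti-CD40), Wnt2b (-1.05), and Porcn (-0.79), whose product attaches a fatty acid to Wnt proteins. Wls, whose product carries Wnt proteins to the cell surface, was higher (0.78).

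Of 11 receptor genes tested, Fzd8 (log2 ratio -1.65, adjusted p = 5.71e-05 from limma) and Ryk (-0.75) were lower, which is 18.2% of them, and none was higher. Lgr4, the more widely used R-spondin receptor, was not called (-0.28, adjusted p = 0.229 from limma). Of 17 intracellular components, 4 were lower (23.5%) and 5 higher (29.4%), shares near those of 21.7% and 23.5% over all genes tested. Ctnnb1, which encodes β-catenin itself, had a log2 ratio of 0.25 (adjusted p = 0.0437 from limma), and the call was lost when any 1 of 7 of the mice was left out. It was larger under other scalings, 0.67 with quantile normalization (adjusted p = 0.000288 from limma) and 0.61 without the Saa genes (adjusted p = 0.000436 from limma). Lef1 (1.52), Bcl9 (0.68), and Csnk1e (0.50) were higher, and Tcf7l2 (-0.62), Axin1 (-0.51), and Dvl1 (-0.50) were lower. The calls of these 3 lower genes did not hold without the Saa genes, that of Axin1 also not without anti-CD40 mouse 9, and that of Bcl9 not with quantile normalization or without anti-CD40 mouse 5 or 9.

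Feedback genes held the largest change in the Wnt lists. Notum, which encodes an enzyme that inactivates Wnt proteins and is used by pericentral hepatocytes, had 21 to 27 reads in the anti-CD40 group, against 89 to 227 among the controls. Its FPKM was 13.4% of the control mean (log2 ratio -2.69, adjusted p = 2.28e-05 from limma), and control mouse 4 was at 81.9% of the other control mice. Nkd1, an inhibitor of Dishevelled (-1.47, adjusted p = 5.52e-05 from limma), Tnfrsf19 (-1.40), the transcription factor gene Sp5 (-1.24), and Rnf43 (-0.96) were also lower. The call for Sp5 was lost without anti-CD40 mouse 2 or 5, and that for Rnf43 without the Saa genes (adjusted p = 0.0562 from limma). Rnf43 and Znrf3 encode partner enzymes that remove Wnt receptors, and Znrf3 was not called (-0.45, adjusted p = 0.140 from limma). Frzb (2.61) and Dkk3 (1.39), which encode secreted proteins related to Wnt inhibitors, and Myc (2.17) were higher. In all, 5 of the 14 genes tested in this list were lower (35.7%) and 3 higher (21.4%), against 21.7% and 23.5% of all genes tested.

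**Figure D4:**
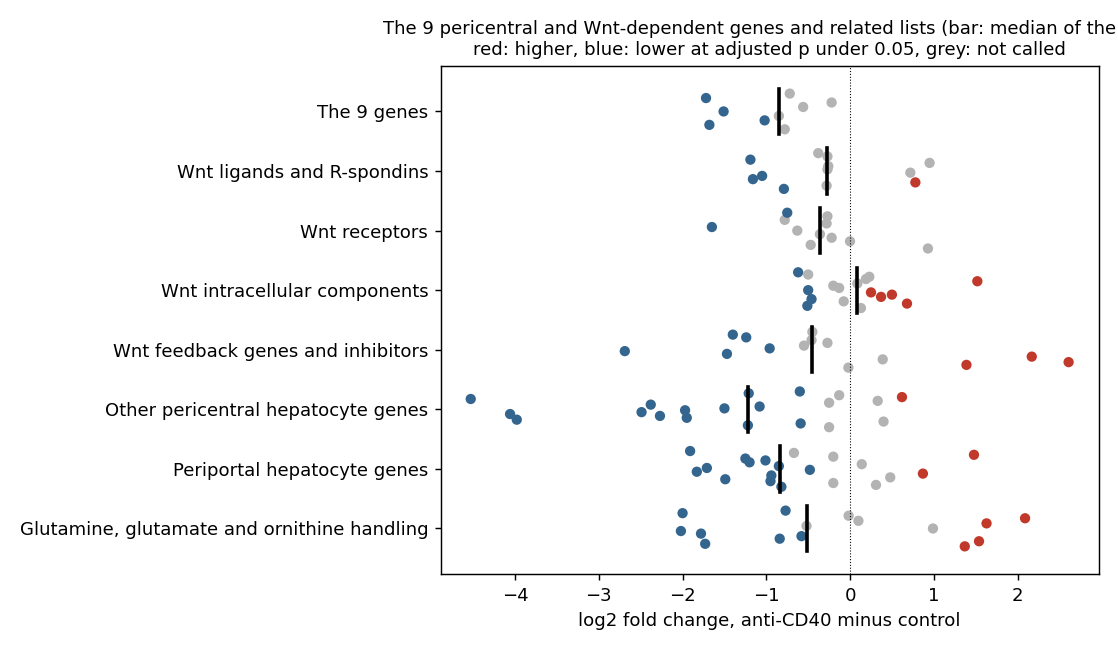
Log2 fold change (x axis, anti-CD40 minus control) of the 9 genes and of 7 lists of related genes, 1 point a gene, blue where called lower, red where called higher, and grey where not called. Black bars mark medians, at -0.85 for the 9 genes, -1.22 for other pericentral genes, and -0.84 for periportal genes.

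Of 20 other pericentral genes, 14 were called lower (70.0%) and 1 higher (5.00%), against 21.7% and 23.5% of all genes tested. Their median log2 ratio was -1.22. Rgn, which encodes a calcium-binding protein, was at 4.31% of the control mean (log2 ratio -4.53, adjusted p = 1.31e-08 from limma), Cyp2c29 at 5.92%, and Cyp1a2 at 5.91%. The log2 ratios of these 3 genes lie outside the 95% intervals of Glul and Slc1a2. Cyp2e1, the standard pericentral cytochrome P450, had an FPKM of 128, 305, and 366 in mice 2, 5, and 9 of the anti-CD40 group, against 887 to 2002 among the controls, the lowest in mouse 4 (log2 ratio -2.49, adjusted p = 0.000210 from limma). Reads of Cyp2c29 and Cyp2a5 could be shared with close paralogs. Rnase4 was the gene called higher (0.62), though not with anti-CD40 mouse 2 or 9 left out. Control mouse 4 was the lowest control in 11 of these 20 genes. Without the Saa genes, 12 were lower and 3 higher.

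Of 20 periportal genes, the genes of the opposite zone, 12 were called lower and 2 higher, with a median log2 ratio of -0.84, and the difference between the zones was not tested. Gls2, which encodes the glutaminase of periportal hepatocytes, had an FPKM of 69.1 to 80.8 in the anti-CD40 group, against 168 to 359 among the controls (log2 ratio -1.71, adjusted p = 0.000160 from limma), and the highest Gls2 of all was that of control mouse 4. Uroc1 (-1.91) and Cyp2f2 (-1.83) were also lower, and Sdsl (1.48) and Ctsc (0.87), a protease gene that leukocytes also use, were higher. Mouse 4 was the lowest control in 4 of the 20 genes, against 11 of the 20 pericentral genes. The split was 8 lower and 5 higher with quantile normalization and 9 lower and 5 higher without the Saa genes.

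Glutamine, glutamate, and ornithine are the substrates and products of Glul, Slc1a2, and Oat. Of 15 other genes of their handling that were tested, 7 were lower (46.7%) and 4 higher (26.7%), against 21.7% and 23.5% of all genes tested. Without the Saa genes, 6 were lower and 6 higher. Slc38a3, which encodes a glutamine transporter of hepatocytes, was lower, at 25.4% of the control mean (adjusted p = 0.00205 from limma), as were Prodh, the first enzyme of proline breakdown (log2 ratio -2.02), and the urea cycle gene Otc (-1.78). The transporter genes Slc38a1 (2.09) and Slc1a5 (1.63), which lymphocytes and many dividing cells use, were higher. Slc1a5 belongs to the same family as Slc1a2. Of the other relatives of Slc1a2 and Rhbg, named here after their values were seen, Slc1a3 had a log2 ratio of 0.99 (adjusted p = 0.114 from limma), Slc1a4 one of -0.52 (adjusted p = 0.108), neither called, and Rhcg was listed at the floor in all 9 mice. Slc1a3 was called higher without the Saa genes (1.27, adjusted p = 0.0452 from limma) and Slc1a4 lower with quantile normalization (-0.89, adjusted p = 0.00901 from limma). Of the receptors proposed for LECT2, Met was lower (-0.40, adjusted p = 0.0193 from limma), though not with anti-CD40 mouse 2 or 9 or the Saa genes left out, and Tie1 was not called (0.33, adjusted p = 0.225 from limma).

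Markers of the cell types in these samples moved with the groups, and their part in the values of the 9 genes was not tested. Over all genes tested, 21.7% were called lower and 23.5% higher. The shares were 71.4% lower and 14.3% higher for hepatocyte markers and 12.5% and 87.5% for leukocyte markers. They were 37.5% and 25.0% for endothelial and for stellate cell and fibroblast markers, and 28.6% and 42.9% for central vein genes. Of the cholangiocyte markers tested, 40.0% were called higher. Of 7 hepatocyte markers tested, 5 were lower, among them Alb (log2 ratio -2.43), Apoa2 (-2.18), and Ttr (-1.96), and Fgb was higher (0.88). The summed FPKM of these markers was 13923 to 16274 in the anti-CD40 group, against 30785 to 55275 among the controls, so the tissue expressed its defining genes in every mouse. In the controls these sums were mostly Apoa2 (16832 to 29829). After anti-CD40 they were mostly Apoa2 (4839 to 5993) and Fgb (4733 to 5289.7), so they do not describe the other hepatocyte markers. All 8 leukocyte markers were called, 7 higher, led by S100a9 (7.02), S100a8 (7.00), and Itgam (3.35), and Adgre1 lower (-1.49). Their sums were 4346 to 5397 and 42.6 to 212. In the anti-CD40 group these sums were mostly S100a8 (2916 to 3677) and S100a9 (1239 to 1619), so they do not describe the other leukocyte markers. The T cell marker Cd3e (0.78, adjusted p = 0.0362 from limma) rested on 6 to 7 reads against 1 to 6 and was not called in 10 alternatives, among them the loss of any 1 of 7 mice and quantile normalization (0.36). Of 8 endothelial markers, Lyve1 (2.08) and Pecam1 (0.60) were higher and Clec4g (-0.88), Tek (-0.54), and Kdr (-0.42) lower, with sums of 86.8 to 99.8 and 92.9 to 123 that overlapped. Kdr and Tek were each not called in 7 alternatives, among them the one without the Saa genes (-0.052 and -0.20), and Pecam1 was not called with anti-CD40 mouse 5 or 9 left out. Of 7 genes linked to central vein endothelium, Thbd, Kit, and Lhx6 were higher and Wnt2 and Cdh13 lower, and Kit was not called in 7 alternatives. The sums of this list, 387 to 553 and 88.3 to 852, were mostly Fabp4, which was not called and had an FPKM of 375 to 542 and 74.6 to 846, so they do not describe the other 6 genes. Of 8 stellate cell and fibroblast markers, Colec11 (-2.92), Reln (-2.06), and Lrat (-1.23) were lower and Col1a1 (1.79) and Pdgfrb (1.10) higher. The sums of this list, 212 to 240.4 and 267 to 391, were mostly Dcn, which was not called. Dcn had an FPKM of 188 to 213 and 196 to 294, so these sums do not describe the other genes of the list. Of 5 cholangiocyte markers tested, Sox9 and Spp1 were higher, and Krt19, Krt7, and Epcam were not called (adjusted p = 0.235, 0.671, and 0.384 from limma). The sums over the 6 listed were 68.6 to 98.5 and 8.88 to 17.6. In the anti-CD40 group they were nearly all Sox9 (48.5 to 64.8) and Spp1 (15.6 to 31.8), so they do not describe the other genes of the list.

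The genes whose pattern was most like that of each gene were found by the root mean square distance of their log2 values over the 9 mice, each set against its own control mean. For Glul these were Hspb6 (distance 0.181) and Cideb (0.220), where the median over all genes was 1.18. For Slc1a2 they were Gulo (0.186), one of the other pericentral genes, and Slc25a23 (0.216). Oat was nearest to Ugt2b36 (0.295) and Mrps36 (0.299), and Rhbg to Gpt2 (0.271) and Prkar2a (0.275). Tbx3 was nearest to C77080 (0.208) and 1010001N08Rik (0.226), Rspo3 to Nfatc4 (0.131) and Fam172a (0.141), and Lect2 to Sat2 (0.141) and Tsc22d1 (0.144). Axin2 and Lgr5, with a mean FPKM under 1, were not matched. The distance describes these 9 mice and carries no test.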

How the data were processed

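RNA from 9 mouse livers was made into QuantSeq 3′ libraries and sequenced on an Illumina NextSeq. The authors aligned reads with STAR to mm10 and computed FPKM with Cufflinks and CuffDiff. The deposited FPKM have a floor of 0.01, and 15 genes with a failed estimate were left out. The annotation and the filter behind the deposited table are not given in the sources used here, nor is whether counting used strand. Groups came from the sample titles. Nothing in the labels says whether mice shared a cage, litter, or batch, and p-values measure only the spread between these mice. FPKM were tested as log2(FPKM + 0.1) with limma 3.58.1 in R 4.3.3 (lmFit, eBayes with a trend, 2-sided, Benjamini-Hochberg over 13807 genes, mean FPKM of at least 0.1), and single genes by a 2-sided exact permutation test over 84 divisions of the mice. On the FPKM scale the median ratio of a mouse to the geometric mean was 1.004 to 1.010, so no scaling was added. The value of 1 read in each mouse was taken from the steps between low FPKM, where 89.9% of 1997 genes with a mean FPKM under 0.5 gave whole reads within 0.05 in every mouse. These steps give relative depth only, so total depth is unknown. Python 3.11.15, numpy 2.4.6, pandas 2.3.3, and matplotlib 3.10.9 did the rest.

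The limma step was tested on simulated data with 13807 genes, drawn around the means and spread of these data, with 200 genes changed. It recovered 49% of changes of log2 size 1 and 93% of size 2, with 8 false calls. In the real data 6230 genes were called, many more than 200, so these rates need not hold there. The 5 genes not called among the 9 had log2 ratios smaller than 1 in size, so a missing call does not show a gene to be unchanged. The 9 genes, the lists, and the tests were chosen with earlier results of these data known. Named besides the 9 were, in each list, the 3 largest changes called in each direction, a short set of Wnt and zonation genes (Ctnnb1, Wnt2, Wnt9b, Lgr4, Znrf3, Rnf43, Cyp2e1, Cyp1a2, Gls2, Cyp2f2, Slc38a3, and Met), and the 2 nearest genes by distance, and 1 gene that this rule names is not reported here. Porcn, Sp5, Cyp2a5, Tie1, Slc1a3, Slc1a4, Rhcg, Fabp4, Cd3e, Amy2a5, Cela1, Dcn, Krt19, Krt7, Epcam, and the genes given as reads only fall outside this rule and were named after their values were seen. Promoters are RefSeq, GRCm38.p6. Saa1, Saa2, and Saa3 took 25.4% to 25.9% of the summed FPKM in anti-CD40 mice and 0.0449% to 0.380% in control mice, so leaving them out with rescaling was one alternative. The others were pseudocounts of 1 and 0.01, no filter, quantile normalization, a stricter filter (mean FPKM of 1 or more), median of ratios scaling, eBayes without trend or robust, array weights, and leaving out each mouse.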

Additional observations from a re-analysis of the deposited data

Results flagged for a closer look

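Over the 6 control mice, 16 sets of FPKM values were examined (the 9 genes and the 7 summed marker lists). In 1 set, a mouse stood apart from the rest by more than 0.625 of the range, where chance gives about 1 in 20. This set was the summed FPKM of pancreatic acinar markers, highest in control mouse 7 at 190.4. The next control mouse was at 112, a gap of 0.658 of the range. Cela1 alone was at 188 in control mouse 7, so the flag describes this gene and not the other acinar genes. On the FPKM scale, none of the 9 genes passed this limit in the control mice, Glul in control mouse 4 included. The check was not run on log2(FPKM + 0.1), the scale of the tests, so it does not speak for that scale. There, against the control mean, Glul was at -1.23 in control mouse 4, -0.05 in the next control mouse, and 0.43 in the highest. Most of the range of Glul among the controls thus lay between mouse 4 and the next mouse on that scale.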

How the results depend on the processing

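Glul, Slc1a2, Oat, and Lect2 were called lower in all 19 alternatives, with log2 fold changes of -1.94 to -1.29, -1.90 to -1.36, -1.71 to -1.03, and -1.10 to -0.57. The number called among the 9 genes was 4, but 7 with quantile normalization and 7 with array weights, where Axin2 (-1.18 and -0.87), Lgr5 (-1.23 and -0.91), and Tbx3 (-0.87 and -0.85) were added, and the cause was not tested. Genes called lower over the whole table also rose under these settings, from 2990 to 3456 and 3556. Leaving out 1 mouse gave 4 to 5. Rhbg and Rspo3 were called in none of 19. Rspo3 changed direction to 0.13 without Saa1, Saa2, and Saa3, a setting that moved the median over all genes by 0.34 on the log2 scale, to 0.35, and the split of calls over all genes from 3240 higher and 2990 lower to 5592 and 1649. Of the other Wnt genes, 24 were called, and 15 with a mean FPKM of at least 1, where 31 in place of 54 were tested. The total called in the other pericentral, periportal, and glutamine lists moved by less than 1.5 times in every alternative, but the split moved: periportal genes went from 12 lower and 2 higher to 8 and 5 with quantile normalization and 9 and 5 without the Saa genes, where other pericentral genes went from 14 and 1 to 12 and 3 and glutamine genes from 7 and 4 to 6 and 6. No paired analysis was possible because the mice of the 2 groups share no number. Depth limits several genes: the lowest mouse had 24 reads of Axin2, 39 of Lgr5, 10 of Wnt9b, 6 of Sp5, 6 of Lef1, 1 of Cdh13, and 0 of Wnt7b.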

Other observations

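Several Wnt genes lay below the mean FPKM of 0.1 needed for the test and are given as reads only. Wnt10a had 9, 2, and 9 reads in mice 2, 5, and 9 of the anti-CD40 group, against 0 in each of the 6 controls. Wnt10b had 8, 3, and 2 reads in the same mice, against 0 to 1 among the controls. Cd209a, one of the receptors proposed for LECT2, had no read in any mouse given the antibody, against 1 to 7 among the controls. Tcf7, a TCF family gene of T cells, had 0 reads in the anti-CD40 group, against 0 to 3 among the controls, whereas Lef1 of the same family had 24 to 44 and 6 to 10.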
